A study of Homo sapiens with 24 samples.

Results

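The genes examined here encode the subunits of the proteasome, the protease that degrades proteins tagged with ubiquitin. They were taken by symbol: PSMA1 to PSMA7, PSMB1 to PSMB7, PSMC1 to PSMC6, PSMD1 to PSMD14 and PSME1 to PSME4, which gave 38 genes of the 39772 listed in at least 1 of 4 tables. All 38 were listed, with an adjusted p-value, in each table. Cultures of 4 neuroblastoma lines received GSK-J4, which inhibits the histone H3 lysine 27 demethylases KDM6A and KDM6B, at 1 µM for 72 hours, and were compared with untreated cultures of the same line. There were 3 polyadenylated RNA libraries per group and 24 in all. The 8 groups were LAN5 with GSK-J4 and LAN5 untreated, IMR5 with GSK-J4 and IMR5 untreated, SK-N-FI with GSK-J4 and SK-N-FI untreated, and SK-N-BE(2) with GSK-J4 and SK-N-BE(2) untreated. LAN5, IMR5 and SK-N-BE(2) are labelled MYCN-amplified and SK-N-FI wild type for MYCN. LAN5, IMR5 and SK-N-FI are labelled sensitive to the compound and SK-N-BE(2) resistant. Each sensitivity class and MYCN class is therefore a small number of established lines, and nothing says that the 3 libraries of a group were separate cultures, so p-values measure the spread between libraries, which may be technical.

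The proteasome has a barrel-shaped core particle with PSMA proteins in its outer rings and PSMB proteins in its inner rings, of which PSMB5, PSMB6 and PSMB7 carry the protease sites. A regulatory particle caps the core: a base of PSMC ATPases unfolds the substrate, and a lid that includes the deubiquitinase PSMD14 removes its ubiquitin. PSMD5, PSMD9 and PSMD10 bind the base during assembly and leave the finished particle, and the PSME proteins are alternative caps that do not need ubiquitin. Genes of the proteasome are known to be transcribed together, in mammals through the factor NFE2L1, which is activated when proteasome capacity is short. Counted in this way there were 14 genes of the core particle, 17 of the regulatory particle, 3 assembly chaperones and 4 activators.

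The files hold 1 comparison per line and no value of a single library, so levels below are means over a line's libraries, and the depth of a library is unknown. Summed over all genes, the mean normalized counts came to between 15458900 and 19445400 per table. The members' share of that sum was lowest in SK-N-FI (0.440%) and highest in IMR5 (0.515%), with LAN5 at 0.442% and SK-N-BE(2) at 0.445%, where each table was normalized on its own. Fold changes are log2 values read as GSK-J4 over untreated. No header gives their direction; it was taken from the positive sign of BBC3, a target known to rise in sensitive lines, in the tables of LAN5, IMR5 and SK-N-FI, and in that of SK-N-BE(2) from the positive sign of the metal-response genes MT2A and SLC30A1. Errors are standard errors (n = 3 libraries per group), and a gene is called at an adjusted p under 0.05 in the authors' Wald test with Benjamini-Hochberg adjustment. The lineage label was checked on 8 markers of sympathetic neuroblasts. In the authors' deposited tables HAND2, ISL1 and CHGA had mean normalized counts of 1382 or more in every line. Others were lower: DBH, an enzyme of noradrenaline synthesis, was at 790 in LAN5, while IMR5 had 144, SK-N-FI 700 and SK-N-BE(2) 62.2, and GATA3 was at 236 in SK-N-FI, per the authors' deposited tables. TH was not analysed here for IMR5 and SK-N-FI. Of 7 markers of other cells, the leukocyte marker PTPRC and the endothelial marker PECAM1 were at 2.27 or less where listed, and EPCAM and S100B at 48.1 or less where listed. The stromal markers reached higher levels: DCN had 11860 in SK-N-BE(2) and 1600 in SK-N-FI, and COL1A1 had 1104 in IMR5 and 552 in SK-N-BE(2), per the authors' deposited tables. By calls on this list, LAN5 had 1 that rose, IMR5 had 2, SK-N-FI had 1 that rose and 1 that fell, and SK-N-BE(2) had 1 that fell. COL1A1 rose by 3.22 ± 0.279 in IMR5, and DCN by 0.71 ± 0.115 in SK-N-FI, per the authors' deposited tables. Among the neuroblast markers all 8 fell in LAN5, 4 of 7 fell and 2 rose in IMR5, 5 of 7 fell and 1 rose in SK-N-FI, and 5 of 8 fell in SK-N-BE(2). Of genes whose mean reached 1000, the SK-N-BE(2) table called 1.59% lower. That share was 23.3% for SK-N-FI, 43.4% for IMR5 and 46.3% for LAN5. The 4 of 7 that fell in IMR5 are thus near its share. All 8 in LAN5, 5 of 7 in SK-N-FI and 5 of 8 in SK-N-BE(2) are above theirs. Some neuroblast markers, DBH in every line among them, had means below 1000, and these shares match them less well. Most markers of other cells were less abundant, and the shares of all tested genes given below apply to them. The part of both marker lists in the results below was not tested. In bulk RNA fewer cells of a type and less RNA per cell cannot be told apart.

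In LAN5 the proteasome genes were mostly higher after GSK-J4, and in IMR5 they were mostly lower, although both lines are MYCN-amplified and labelled sensitive. Of the 38 members 20 rose and 3 fell in LAN5, where 22.5% of all tested genes were called higher and 19.2% lower. In IMR5 2 rose and 32 fell, where 22.6% of all tested genes were called higher and 21.6% lower. In SK-N-FI none rose and 10 fell, against 16.8% and 14.8% of all tested genes. In SK-N-BE(2) none was called, against 1.62% higher and 0.858% lower. Abundant genes are called more readily, and the median member had a mean normalized count between 1672 and 2291. Of genes whose mean reached 1000, the LAN5 table called 28.1% higher and 46.3% lower, that of IMR5 32.4% and 43.4%, that of SK-N-FI 27.6% and 23.3%, and that of SK-N-BE(2) 2.80% and 1.59%.

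**Figure D1:**
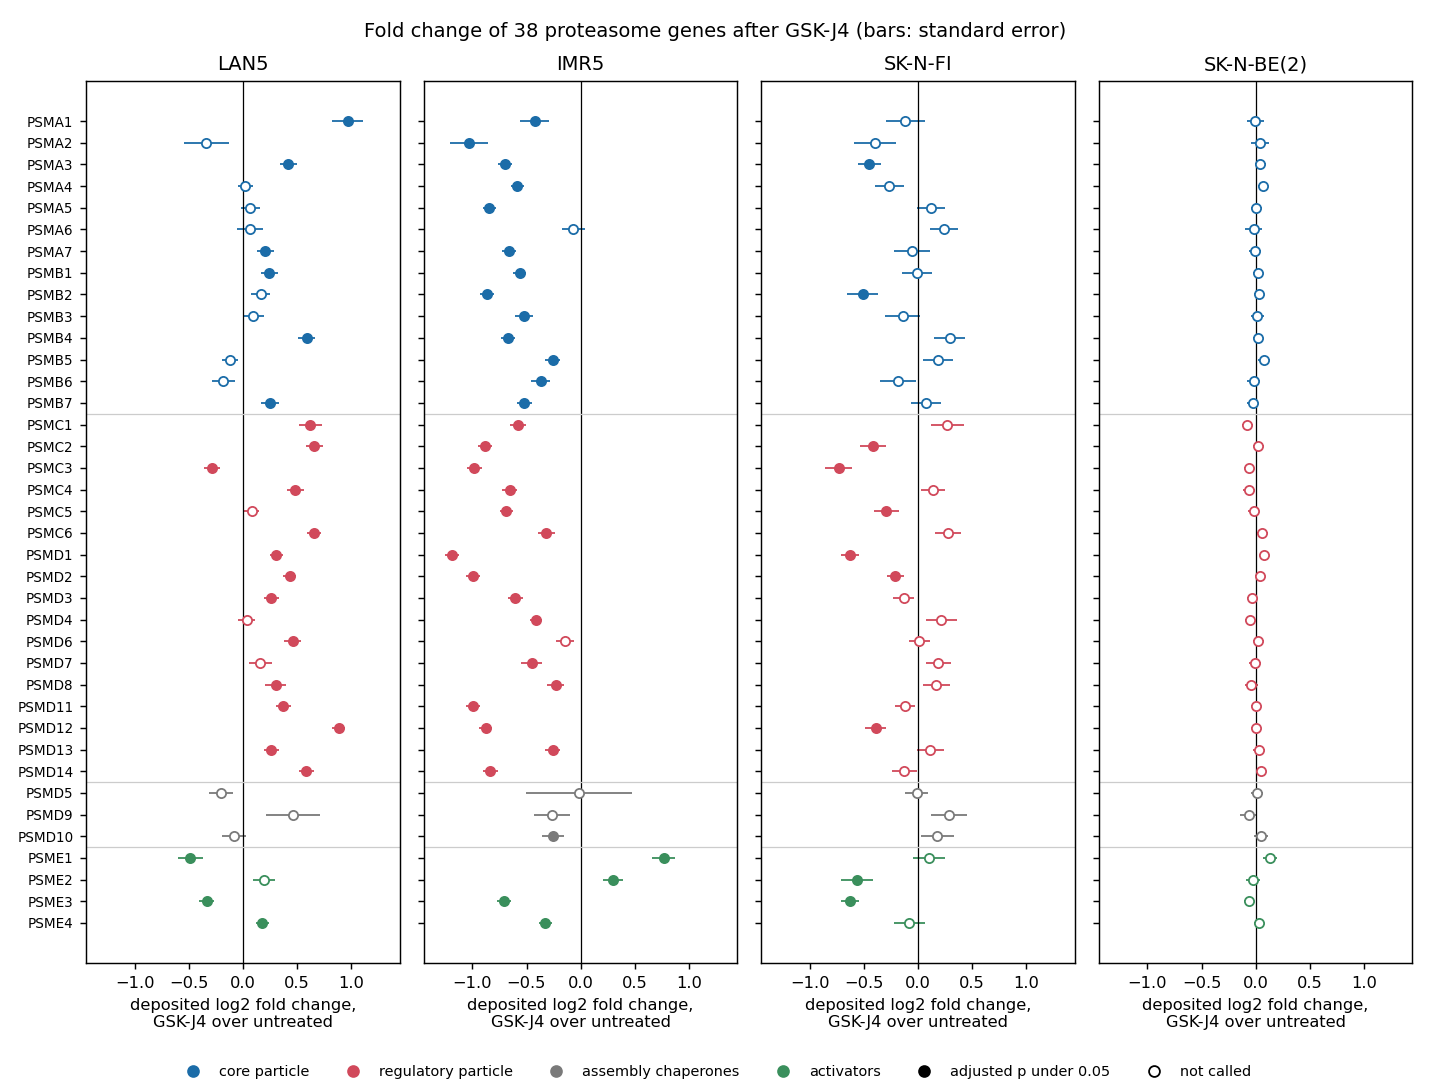
Deposited log2 fold change (x axis, GSK-J4 over untreated, with standard error) of the 38 proteasome genes (rows) in the 4 lines (panels), coloured by particle; filled points passed an adjusted p of 0.05. Most filled points lie right of 0 in LAN5 (20 of 23) and left of 0 in IMR5 (32 of 34), and SK-N-BE(2) has none; its fold changes were shrunken most by the authors' method.

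In LAN5 PSMA1, an outer-ring subunit, had the highest value of the called members, at 0.97 ± 0.144 in the authors' deposited table (adjusted p = 1.25e-10). PSMD12, a lid subunit, rose with the smallest p-value, by 0.89 ± 0.0595 (adjusted p = 1.83e-48) in the authors' deposited table. From its mean and fold change the group means of PSMD12 are 4129 normalized counts with GSK-J4 and 2231 untreated. The ATPase genes PSMC2, PSMC6 and PSMC1 followed, at 0.66 ± 0.0811, 0.65 ± 0.0631 and 0.62 ± 0.105 in the authors' deposited table. PSMC4 rose as well, and PSMD14, the deubiquitinase of the lid, rose by 0.59 ± 0.068 in the authors' deposited table.

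The median fold change in LAN5 was higher for the regulatory particle than for the core. Of the 17 regulatory genes 13 rose and 1 fell, with a median log2 value of 0.37, per the authors' deposited table. Of the 14 core genes 6 rose and none fell, with a median of 0.13 in the authors' deposited table. The median over all genes whose mean reached 1000 was -0.13. In the core, PSMB4, an inner-ring subunit without a protease site, rose by 0.59 ± 0.0793 in the authors' deposited table. Of the genes for the protease sites, PSMB7 rose by 0.25 ± 0.0828 in the authors' deposited table (adjusted p = 0.00819). PSMB5 had -0.12 ± 0.0779 and PSMB6 -0.18 ± 0.104 in the authors' deposited table, and neither was called. The only fall in either particle was that of PSMC3, an ATPase of the same ring as PSMC2, with -0.29 ± 0.0728 in the authors' deposited table (adjusted p = 0.000265). Genes of a single ring, whose proteins assemble in equal numbers, thus differed in direction.

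IMR5 gave falls across both particles. All 31 particle genes had a negative log2 fold change, and 29 were called: 16 of 17 in the regulatory particle, with a median of -0.66, and 13 of 14 in the core, with a median of -0.57, in the authors' deposited table. The median over genes whose mean reached 1000 was -0.07. PSMD1, a scaffold subunit of the base, fell most, by 1.19 ± 0.0608 in the authors' deposited table (adjusted p = 5.2e-83). Its group means are 2501 normalized counts with GSK-J4 and 5721 untreated. PSMA2 fell by 1.04 ± 0.175, PSMD11 by 1.00 ± 0.0643, PSMD2, the other base scaffold, by 1.00 ± 0.0627 and PSMC3 by 0.98 ± 0.0684 in the authors' deposited table. The genes for the protease sites fell less than the median core gene, by 0.26 ± 0.0671 for PSMB5, 0.37 ± 0.0863 for PSMB6 and 0.52 ± 0.0706 for PSMB7 in the authors' deposited table. PSMA6 and the lid gene PSMD6 were not called, at -0.07 ± 0.107 and -0.14 ± 0.0833 in the authors' deposited table.

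Promoters of 3 members are shown from 250 bases before to 50 bases after a RefSeq start (build GRCh38.p14), in lower case, 5′ to 3′ on the gene's strand. PSMD12 (chr17:67366528-67366827, minus strand) has the widest gap between LAN5 and IMR5, and PSMD1 (chr2:231056617-231056916, plus strand) the deepest fall in IMR5. PSMC3 (chr11:47426390-47426689, minus strand) fell in all 3 sensitive lines. That pattern held for 2 of 38 members, against 5.83% of tested genes and 13.5% of those whose mean reached 1000, so it is not more frequent among members. Capitals mark matches on either strand to the 4 motifs searched: TGACNNNGC, bound by NFE2L1 and NFE2L2, CCAAT, bound by NF-Y, CACGTG, the E-box of MYC proteins, and the element of nuclear respiratory factor 1.
PSMD12: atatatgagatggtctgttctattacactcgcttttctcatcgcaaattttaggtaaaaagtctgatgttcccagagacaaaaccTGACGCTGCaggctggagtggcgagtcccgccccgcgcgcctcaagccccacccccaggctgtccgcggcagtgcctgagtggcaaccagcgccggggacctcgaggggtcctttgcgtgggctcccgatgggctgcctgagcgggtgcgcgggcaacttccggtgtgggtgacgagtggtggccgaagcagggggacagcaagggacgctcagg
PSMD1: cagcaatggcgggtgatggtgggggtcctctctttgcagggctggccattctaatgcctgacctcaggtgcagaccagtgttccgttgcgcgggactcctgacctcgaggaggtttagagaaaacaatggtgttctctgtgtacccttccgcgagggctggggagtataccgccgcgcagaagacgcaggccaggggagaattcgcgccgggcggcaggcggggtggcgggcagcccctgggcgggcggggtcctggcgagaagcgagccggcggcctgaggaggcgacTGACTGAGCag
PSMC3: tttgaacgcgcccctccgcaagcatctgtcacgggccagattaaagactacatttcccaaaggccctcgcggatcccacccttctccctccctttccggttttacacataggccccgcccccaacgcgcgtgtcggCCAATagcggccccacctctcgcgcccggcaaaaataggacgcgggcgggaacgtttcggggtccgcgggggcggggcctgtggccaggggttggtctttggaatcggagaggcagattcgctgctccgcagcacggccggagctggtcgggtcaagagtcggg
Each of the 3 windows holds 1 match: TGACNNNGC at position -165 from the start in PSMD12 and 39 in PSMD1, and CCAAT at -114 in PSMC3. Promoters were matched for 33 of the 38 members, counting a gene once if any of its windows matched. TGACNNNGC was found in 12 of the 33 (36.4%), against 17.9% of 15843 protein-coding genes, namely in 5 of 16 regulatory and 2 of 10 core genes, 2 of 3 chaperones and 3 of 4 activators. CCAAT was found in 17 of the 33 (51.5%, against 42.1%), with 7 of 10 in the core and 8 of 16 in the regulatory particle. The nuclear respiratory factor 1 element was found in 5 (15.2%, against 9.67%), and CACGTG in 3 (9.09%, against 10.9%). The particle genes with CACGTG were 1 in the core and none in the regulatory particle. These matches are a description of letters in 1 window and say nothing of binding.

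The opposite movement in LAN5 and IMR5 was tested gene by gene. Deposited fold changes are shrunken toward 0 by a different amount in each table, so this shrinkage was removed first; such values are called prior-removed. Of 35 members whose mean reached 100 in every table, 29 had a higher fold change in LAN5 than in IMR5 and 1 a lower fold change (two-sided Wald test, Benjamini-Hochberg adjusted over 8969 genes), where 27.3% and 33.6% of those genes were called. All 17 regulatory genes were among the 29, with a median difference of 0.98, and so were 10 of the 13 core genes, with a median of 0.81. Over all 8969 genes the median difference was -0.06. PSMD12 had a prior-removed log2 fold change of 0.89 in LAN5 and -0.88 in IMR5, a difference of 1.77 ± 0.0858 (adjusted p = 6.57e-92). PSMC2 differed by 1.55 ± 0.104, PSMD1 by 1.504 ± 0.0888 and PSMD14 by 1.43 ± 0.0952. The core genes not called were PSMA6, PSMB5 and PSMB6; for PSMB5 the difference was 0.14 with a 95% interval from -0.07 to 0.34.

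Counted by calls, 19 of 38 members rose in LAN5 and fell in IMR5, where 3.03% of 20720 genes tested in both did so. Where the mean reached 1000 in both tables it was 18 of 28 members, against 6.42%. The 19 comprised 12 regulatory genes, 6 core genes and PSME4. With 20 of 38 members higher in LAN5 and 32 lower in IMR5, a large overlap follows from those counts. The reverse pattern was seen for PSME1 alone, against 3.68% of tested genes (none of 28 members, against 6.45%, where the mean reached 1000). PSMC3 and PSME3 fell in both lines, against 11.6% of tested genes and 30.1% of those whose mean reached 1000. None rose in both, against 10.6% and 13.9%. Only PSME1 and PSME2 rose in IMR5, with means of 635 and 831 there. Where the mean reached 1000, no member could therefore show this pattern or the reverse one, and those counts carry no information.

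**Figure D2:**
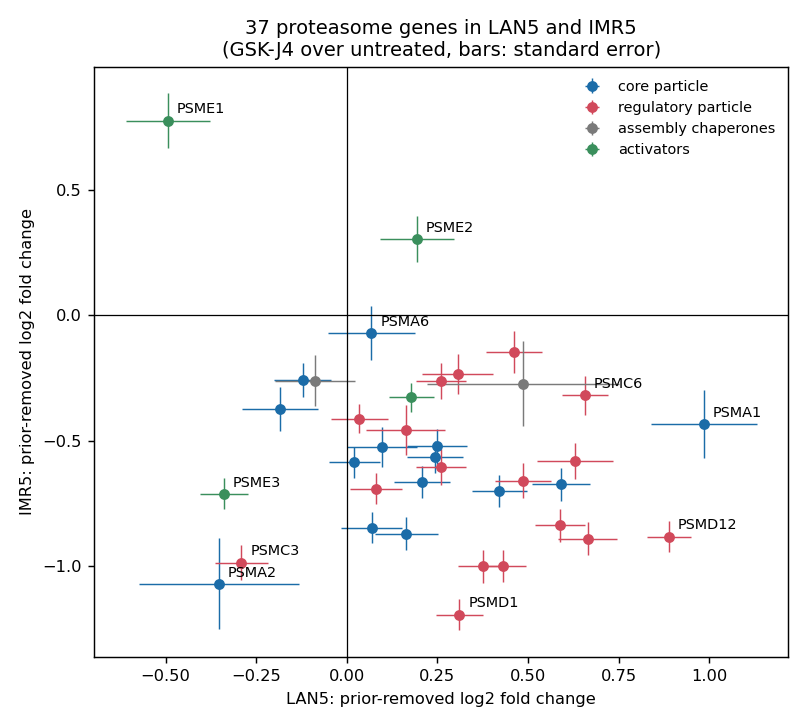
Prior-removed log2 fold change (GSK-J4 over untreated) in LAN5 (x axis) against IMR5 (y axis) for 37 proteasome genes, with standard errors, coloured by particle; PSMD5, near 0 counts in IMR5, is left out. Most points lie at lower right, higher in LAN5 and lower in IMR5; PSME1 sits alone at upper left and PSME2 at upper right, and PSMC3, PSMA2, PSME3, PSMB5, PSMB6 and PSMD10 lie at lower left.

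SK-N-FI had fewer called members than LAN5 or IMR5, and no called rise. Of the regulatory genes 6 of 17 fell and of the core genes 2 of 14, with medians of -0.12 and -0.09 in the authors' deposited table. In this line 14.8% of all tested genes were called lower, and 23.3% of those whose mean reached 1000. The 10 falls among the 38 members are near the share of abundant genes, so their number is no result about the members. The median over genes whose mean reached 1000 was 0.03. PSMC3 fell by 0.73 ± 0.125 (adjusted p = 6.65e-08) and PSMD1 by 0.63 ± 0.0801 (1.2e-13) in the authors' deposited table. The group means of PSMC3 are 912 normalized counts with GSK-J4 and 1534 untreated. In the core, PSMB2 fell by 0.51 ± 0.142 and PSMA3 by 0.45 ± 0.105 in the authors' deposited table. PSMC2, PSMD12, PSMC5 and PSMD2 also fell, with log2 fold changes between -0.41 and -0.21 in the authors' deposited table. Of these, PSMC5 (adjusted p = 0.0397) was not called when p-values were adjusted over all genes with a p-value (0.0575) or when fold changes were centred (0.055). The genes for the protease sites were not called, at 0.18 ± 0.14 for PSMB5, -0.18 ± 0.165 for PSMB6 and 0.07 ± 0.136 for PSMB7 in the authors' deposited table.

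All 8 particle genes that fell in SK-N-FI also fell in IMR5, as did PSME3, making 9 of 38 members against 8.52% of 19107 genes tested in both (9 of 27, against 16.8%, where the mean reached 1000). Of these, 5 rose in LAN5 (PSMA3, PSMC2, PSMD1, PSMD2 and PSMD12), against 0.704% of 18599 genes tested in all 3 lines and 1.47% of those whose mean reached 1000. As 32 of 38 members fell in IMR5 and 20 rose in LAN5, these overlaps follow largely from the counts of each line. They are no separate result about the members. PSMC3 and PSME3 were the members lower in all 3, against 5.83% of tested genes and 13.5% of those whose mean reached 1000. The difference between LAN5 and SK-N-FI was called for 17 members as higher and 1 as lower, where 20.8% and 31.9% of genes were called. Of the 17, 12 were regulatory and 3 core genes. Between IMR5 and SK-N-FI 2 members were called higher and 22 lower, where 21.8% and 27.1% of genes were called. The 22 comprised 15 regulatory genes, 6 core genes and the chaperone PSMD10. PSMD12 differed by 1.28 ± 0.115 between LAN5 and SK-N-FI, and PSMB4 by -0.98 ± 0.162 between IMR5 and SK-N-FI.

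In SK-N-BE(2) no member was called by the authors' test, and 1 of 38, PSME1, had an unadjusted p under 0.05 (0.0379, adjusted 0.426). No other tool could be run on this table, which holds no counts. Prior-removed log2 fold changes of the particle genes ran from -0.09 for PSMC1 to 0.09 for PSMB5, leaving out PSMA2, and the medians were 0.00 in the regulatory particle and 0.02 in the core. For 35 of the 38 members the 95% interval of the prior-removed log2 fold change lay between -0.25 and 0.25. PSMD12 had 0.00 with an interval from -0.10 to 0.11. PSMD1 had 0.09 ± 0.047, and PSMC3 -0.07 ± 0.0505. The genes for the protease sites had 0.09 ± 0.0645 for PSMB5, -0.02 ± 0.0718 for PSMB6 and -0.03 ± 0.059 for PSMB7.

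The fold changes of the sensitive lines were tested against that of SK-N-BE(2) in turn. LAN5 had 19 members higher and 3 lower than SK-N-BE(2), where 24.5% and 36.3% of 8969 genes were called, and IMR5 had 2 higher and 30 lower, where 28.7% and 34.3% were called. SK-N-FI had none higher and 10 lower, where 22.7% and 21.5% were called, so the 10 lower are near the share over all genes. The mean of the 3 sensitive lines had none higher and 13 lower, where 26.4% and 32.7% were called, a mean over values of opposite sign for most members. Its lowest differences were those of PSMC3 at -0.61 ± 0.0741, PSMD1 at -0.59 ± 0.0617 and PSME3 at -0.50 ± 0.062. These comparisons share the SK-N-BE(2) libraries.

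**Figure D3:**
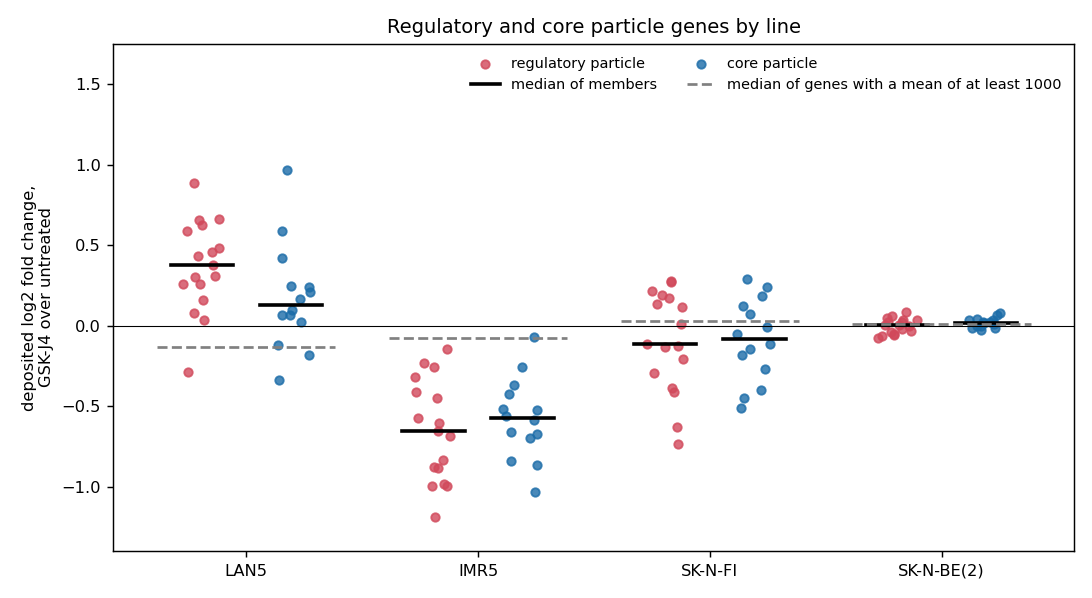
Deposited log2 fold change (y axis, GSK-J4 over untreated) of regulatory (17 genes) and core particle genes (14 genes) in each line; black bars are medians of the members and dashed lines medians of all genes whose mean reached 1000. The regulatory and the core median are 0.37 and 0.13 for LAN5, -0.66 and -0.57 for IMR5, -0.12 and -0.09 for SK-N-FI, and 0.00 and 0.02 for SK-N-BE(2).

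The medians of the particles lay furthest apart in LAN5. There 14 of 17 regulatory genes lay above the core median and 3 below it, and the medians differed by 0.24. In IMR5 11 of 17 lay below the core median, with a difference of -0.08, in SK-N-FI 9 of 17 with -0.03, and in SK-N-BE(2) 10 of 17 with -0.02. Within the regulatory particle of LAN5 the medians were 0.55 for the 6 ATPases, 0.31 for PSMD1, PSMD2 and PSMD4, and 0.34 for the 8 lid genes in the authors' deposited table. In IMR5 they were -0.67, -0.996 and -0.53 in the authors' deposited table. The middle group there holds PSMD1 and PSMD2 beside PSMD4, a ubiquitin receptor, which fell by 0.41 ± 0.0572, per the authors' deposited table. Within the core of LAN5 the outer-ring median was 0.07 and the inner-ring median 0.16, and in IMR5 they were -0.66 and -0.52, in the authors' deposited table. No test was made between groups of members.

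The activators moved in mixed directions. PSME1 and PSME2 form a cap induced by interferon in mammals. PSME1 fell by 0.49 ± 0.115 in LAN5 (adjusted p = 9.56e-05) and rose by 0.77 ± 0.107 in IMR5 (6.6e-12) in the authors' deposited table. Its group means are 309 normalized counts with GSK-J4 and 435 untreated in LAN5, and 802 with GSK-J4 and 468 untreated in IMR5. The difference was -1.27 ± 0.159 (adjusted p = 1.73e-14), the only member called lower in LAN5 than in IMR5. PSME2, its partner, lies near it on chromosome 14 (PSME1 at chr14:24136158-24138967, PSME2 at chr14:24143362-24147570, GRCh38). It rose by 0.30 ± 0.0903 in IMR5 and fell by 0.56 ± 0.148 in SK-N-FI, per the authors' deposited table. In LAN5 PSME2 had 0.19 ± 0.101 and was not called, and in SK-N-FI PSME1 had 0.10 ± 0.145 in the authors' deposited table and was not called. PSME3, which forms a nuclear cap, fell in all 3 sensitive lines, LAN5 by 0.34 ± 0.0655, IMR5 by 0.71 ± 0.0622 and SK-N-FI by 0.63 ± 0.0835, per the authors' deposited table. PSME4, a cap linked to histone degradation, rose by 0.18 ± 0.0614 in LAN5 and fell by 0.33 ± 0.0585 in IMR5 in the authors' deposited table. PSME4 was not called in SK-N-FI, at -0.08 ± 0.143 in the authors' deposited table. The 4 activators in SK-N-BE(2) had prior-removed values of 0.16 ± 0.0765, -0.03 ± 0.0829, -0.07 ± 0.0463 and 0.03 ± 0.0483, from PSME1 to PSME4.

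The assembly chaperones were mostly not called: PSMD10 fell by 0.26 ± 0.101 in IMR5, per the authors' deposited table, and this call was lost when fold changes were centred (adjusted p = 0.0501). PSMD5 stood out by its level instead. Its mean normalized count was 3.83 in IMR5, while LAN5 had 418, SK-N-FI 838 and SK-N-BE(2) 1033 in the authors' deposited tables, each on its own normalization. No other member had a mean below 57.8 in any table. PSMD5 lies at chr9:120815496-120842984 on the minus strand (GRCh38). PHF19, 12668 bases away, had 673 in IMR5 and 611 in LAN5, and FBXW2, 22084 bases away, had 2190 in IMR5 and 1987 in LAN5, in the authors' deposited tables. TRAF1, 59409 bases away, was at 2.09 in IMR5 and 9.02 in LAN5, while SK-N-FI had 73.3 and SK-N-BE(2) 108, in the authors' deposited tables. These neighbours were chosen after the level of PSMD5 was seen. At such a level the fold change of PSMD5 in IMR5 (-0.01 ± 0.49 in the authors' deposited table) carries no information on a change.
The promoter of PSMD5 (chr9:120842873-120843172, minus strand, GRCh38.p14) is shown in the same way, since the low level in IMR5 is that of a single line.
PSMD5: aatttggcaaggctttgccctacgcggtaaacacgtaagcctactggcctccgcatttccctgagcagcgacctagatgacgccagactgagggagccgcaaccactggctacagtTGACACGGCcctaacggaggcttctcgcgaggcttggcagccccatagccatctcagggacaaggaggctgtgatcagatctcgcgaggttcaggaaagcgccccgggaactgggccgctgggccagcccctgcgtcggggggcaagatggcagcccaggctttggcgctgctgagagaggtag
The capitals mark a TGACNNNGC match at position -134 from the start.

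Levels of different members were compared per kilobase of exon (GENCODE 29 coding transcripts), as mean normalized counts per kilobase. The median in LAN5 was 867 for the regulatory particle and 1215 for the core, and IMR5 had 1215 and 1539. SK-N-FI had 879 for the regulatory particle and 1216 for the core, and SK-N-BE(2) had 859 and 1578. The lowest members of the core were PSMA2, PSMA1 and PSMA6 in LAN5, at 55.9, 112 and 239. Each of these, and PSMD9, overlaps another protein-coding gene on the same strand, over 52.5% of the exon bases of PSMA2, 35.7% of PSMA1, 63.9% of PSMA6 and 28.2% of PSMD9. How the authors' counting split such reads is not known here, so values of these genes are uncertain, PSMA1 in LAN5 and PSMA2 in IMR5 included. Exons of PSMA2, PSMC1, PSMC5, PSMD7, PSMD11, PSMD13, PSMD14 and PSME1 to PSME4 overlap a gene on the opposite strand. Whether counting used the strand is not known either, so their values share this limit. In addition 12 members have pseudogenes named after them, with 13 for PSMC1, and reads could be shared between such copies. Without PSMA1, PSMA2, PSMA6, PSMD5 and PSMD9, 19 members rose and 3 fell in LAN5, and 2 rose and 30 fell in IMR5.

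Genes that assemble, regulate or feed the proteasome were examined from lists drawn up with earlier results of these data known. The factor NFE2L1 rose by 1.00 ± 0.0646 in LAN5 (adjusted p = 2.61e-52) and by 0.26 ± 0.0731 in IMR5 (0.00118) in the authors' deposited table. It was not called in SK-N-FI (0.01 ± 0.133) or SK-N-BE(2) (-0.05 ± 0.0393) in the authors' deposited tables. The related factor NFE2L2 rose in all 3 sensitive lines, by 0.48, 0.42 and 0.47 in LAN5, IMR5 and SK-N-FI, per the authors' deposited tables. DDI2, the protease that activates NFE2L1, fell by 0.25 ± 0.072 in IMR5 and was not called in the other lines in the authors' deposited tables. NGLY1, which removes sugars from NFE2L1, rose in IMR5 and SK-N-FI, by 0.21 and 0.35 in the authors' deposited tables. Of these 4 genes 2 rose in LAN5, 3 rose and 1 fell in IMR5, and 2 rose in SK-N-FI.

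POMP, which guides assembly of the core, rose by 0.32 ± 0.095 in LAN5 and fell by 0.69 ± 0.0689 in IMR5 in the authors' deposited table. Of the other core assembly factors PSMG4 fell in LAN5 by 0.49 ± 0.115, PSMG1 by 0.42 ± 0.0959 and PSMG3 by 0.40 ± 0.126 in the authors' deposited table, and PSMG2 was not called (0.00 ± 0.129). Of the 5 assembly genes 1 rose and 3 fell in LAN5, 3 fell in IMR5 and none was called in SK-N-FI. Among 10 associated subunits and regulators, 4 rose and 3 fell in LAN5, 2 rose and 7 fell in IMR5, and 4 rose and 2 fell in SK-N-FI. The counts of these lists are to be read against the shares of abundant genes called, which were 28.1% higher and 46.3% lower for LAN5, 32.4% and 43.4% for IMR5, and 27.6% and 23.3% for SK-N-FI. ADRM1, a ubiquitin receptor of the base, rose by 0.58 ± 0.12 in LAN5 and by 0.37 ± 0.13 in SK-N-FI, and fell by 0.55 ± 0.0884 in IMR5, in the authors' deposited tables. ZFAND2A, a stress-induced protein that binds the proteasome, rose in all 3, by 1.41 ± 0.14, 0.55 ± 0.177 and 1.25 ± 0.181 in the authors' deposited tables for LAN5, IMR5 and SK-N-FI. PSMF1, described as an inhibitor of the core, fell by 0.29 in LAN5 and rose by 0.35 in SK-N-FI, per the authors' deposited tables.

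VCP, the ATPase that extracts ubiquitylated proteins and hands them to the proteasome, rose in LAN5 and fell in IMR5 and SK-N-FI. The rise was 0.71 ± 0.0628 in LAN5 in the authors' deposited table (adjusted p = 3.3e-28). It fell by 1.34 ± 0.0604 in IMR5 (1.96e-106), and SK-N-FI had a fall of 0.77 ± 0.0799 (2.48e-20), per the authors' deposited tables. Its cofactor NPLOC4 rose by 0.64 ± 0.059 in LAN5 and fell by 0.73 ± 0.0627 in IMR5 and 0.27 ± 0.107 in SK-N-FI, per the authors' deposited tables. UFD1, the partner of NPLOC4, rose in LAN5 and SK-N-FI by 0.41 and 0.46 in the authors' deposited tables. UBA1, the main ubiquitin-activating enzyme, fell in all 3, by 0.25, 0.53 and 0.34 in LAN5, IMR5 and SK-N-FI, per the authors' deposited tables, and so did the shuttle gene UBQLN2. Of the 11 genes for ubiquitin activation, shuttles and VCP, 5 rose and 3 fell in LAN5, 1 rose and 4 fell in IMR5, and 2 rose and 4 fell in SK-N-FI. The shares of abundant genes given for the regulators apply here too. The polyubiquitin gene UBB fell by 0.82 ± 0.0856 in IMR5 in the authors' deposited table. Of the ubiquitin genes tested, 1 of 3 rose and 1 fell in LAN5, and 1 of 4 rose and 1 fell in IMR5. In SK-N-FI 3 of 4 rose and none fell, where 27.6% of abundant genes were called higher. No gene of these lists was called in SK-N-BE(2).

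**Figure D4:**
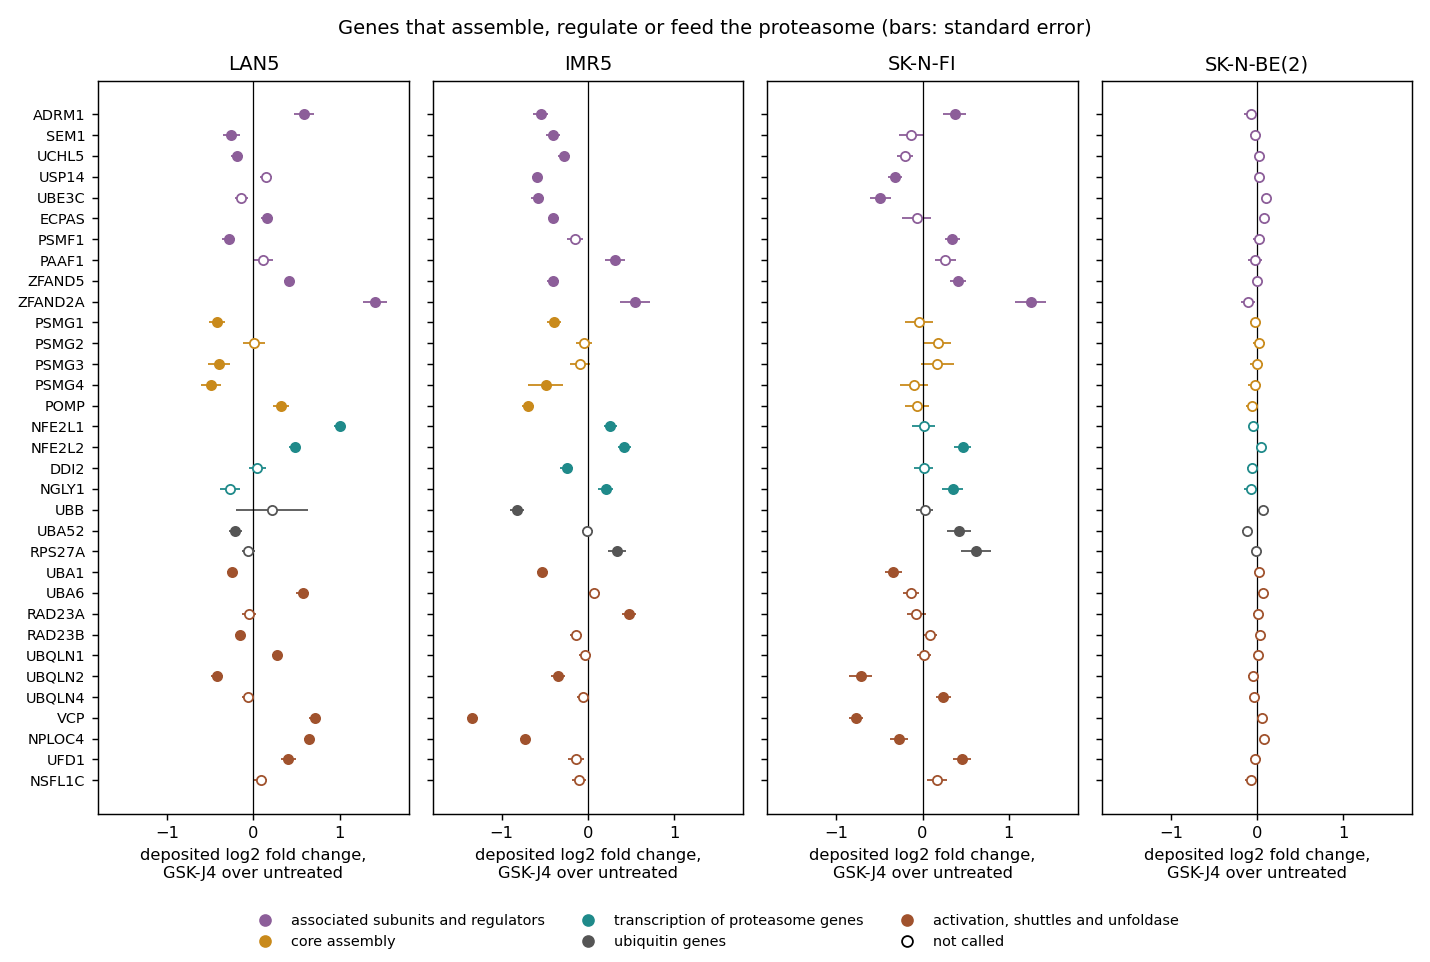
Deposited log2 fold change (x axis, GSK-J4 over untreated, with standard error) of genes that assemble, regulate or feed the proteasome (rows), coloured by list, in the 4 lines (panels); filled points passed an adjusted p of 0.05, and UBB was not tested in LAN5. VCP and NPLOC4 lie right of 0 in LAN5 and left of 0 in IMR5 and SK-N-FI, NFE2L2 and ZFAND2A lie right of 0 in all 3, and SK-N-BE(2) has no filled point.

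PSMB8, PSMB9 and PSMB10 encode interferon-inducible protease subunits that can replace PSMB5, PSMB6 and PSMB7. The mean normalized count of PSMB8 was 4.75 in LAN5 and 0.316 in IMR5, while SK-N-FI had 206 and SK-N-BE(2) 143, and that of PSMB9 was 79.8 in SK-N-FI, while SK-N-BE(2) had 13.6, in the authors' deposited tables. PSMB10 rose by 1.63 ± 0.372 in LAN5 and 0.87 ± 0.308 in SK-N-FI, at means of 24.3 and 33.3, in the authors' deposited tables. Its mean was 4.31 in IMR5 and 11.9 in SK-N-BE(2) in the authors' deposited tables. PSMB8 was not called in the 3 lines that tested it, nor PSMB9 in SK-N-FI, where alone it was tested.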

How the data were processed

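Polyadenylated RNA from 24 libraries was made with a stranded mRNA kit, per the labels' protocols. Per the submitters' processing notes, FastQC, STAR and DESeq2 were used with hg38; their versions, the counting tool, its use of strand, the annotation and the model are not known here. Each line has 1 comparison table. Per the file headers, the authors deposited a signal (mean normalized count), a log2 fold change with its standard error on the log2 scale, a Wald statistic (a score), a p-value and an adjusted p-value. The table read as that of SK-N-FI carries a short name close to the line's, and the other 3 tables name the other lines.

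From their values, not from any header, the deposited fold changes were taken to be shrunken by a normal prior, whose width was taken from the largest standard error of each table (LAN5 0.539, IMR5 0.490, SK-N-FI 0.428, SK-N-BE(2) 0.0828). It was removed by solving the equations for the shrunken value and its error, taking the high-information solution above the level where a 501-gene running median of the errors is highest (134 in SK-N-BE(2)). The statistic of that table differed from fold change over error by more than 0.0001 for 19488 genes (median 0.000382), so its prior-removed values are less sure, and so are those of members below the peak: PSMA2 and PSMD9 there, PSMD5 in IMR5. Group means were computed from the mean and the prior-removed fold change, assuming 3 libraries in each group. Differences between lines used a two-sided Wald test with Benjamini-Hochberg adjustment over genes whose mean reached 100 in each of the 4 tables. Simulated data for LAN5 against IMR5 were built with the same prior and the same errors, so they check the arithmetic of this test only. They cannot show whether the deposited values carry this prior, and SK-N-BE(2) was not simulated.

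Depth per library is unknown. Exon lengths and coordinates came from GENCODE 29 and promoters from RefSeq. Python 3.11.15, pandas 2.3.3, numpy 2.4.6 and scipy 1.17.1 were used. The members and lists were chosen with earlier results of these data known, so lists are described by counts and medians. All members could be named; full values were given for the 5 highest and 5 lowest called per line, the protease-site genes and the activators, and, of the lists, for NFE2L1, POMP, PSMB8, PSMB9, PSMB10 and the 2 highest and 2 lowest called. Where the design foresaw counts per library, the tables held none, and the authors' test was used. PSMB11, PSMA8, and single lines for PSMB9 and TH, were not analysed here, and some genes of the marker and ubiquitin lists are not reported here.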

Additional observations from a re-analysis of the deposited data

Results flagged for a closer look

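The results here are those in which the response of the members differed between lines by the test of the difference itself (Wald test on prior-removed values, Benjamini-Hochberg adjusted over 8969 genes). Each count is of 35 members, with the share of all 8969 genes called in that direction in parentheses. LAN5 against SK-N-BE(2) gave 19 members higher (24.5%) and 3 lower (36.3%), with PSMA1 highest at 0.986 and PSME1 lowest at -0.6525. IMR5 against SK-N-BE(2) gave 2 higher (28.7%) and 30 lower (34.3%), with PSME1 highest at 0.6176 and PSMD1 lowest at -1.282. SK-N-FI against SK-N-BE(2) gave none higher (22.7%) and 10 lower (21.5%), with PSMD1 lowest at -0.7244. The 10 lower are near the share over all genes and are no result about the members. LAN5 against IMR5 gave 29 higher (27.3%) and 1 lower (33.6%), PSMD12 highest at 1.7707 and PSME1 lowest at -1.2701. LAN5 against SK-N-FI gave 17 higher (20.8%) and 1 lower (31.9%), PSMD12 highest at 1.2838 and PSME1 lowest at -0.5978. IMR5 against SK-N-FI gave 2 higher (21.8%) and 22 lower (27.1%), PSME2 highest at 0.8841 and PSMB4 lowest at -0.9755. The mean of the sensitive lines against SK-N-BE(2) gave 13 lower (32.7%), with PSMC3 lowest at -0.6105; this count is near the share over all genes and is no result about the members. Their causes were not tested.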

How the results depend on the processing

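Of the summary values recomputed under other settings 151 stayed within 1.5 times the count, or within 1 median standard error of the median, and 7 moved. With the fold changes centred on genes whose mean reached 100, the LAN5 medians were 0.46 in the regulatory particle and 0.22 in the core, and 2 members were higher in the mean of the sensitive lines than in SK-N-BE(2). With the chaperones and activators added, the regulatory median was 0.28 in LAN5 and -0.51 in IMR5. Adjusting over genes whose mean reached 100 gave 1 member higher in SK-N-FI (PSMC6), and an adjusted p under 0.01 left 1 member higher in IMR5 than in SK-N-BE(2). Of the recomputed values of single members 444 kept direction and side of the threshold; 3 lost a call, 3 gained one, and centring turned the sign of PSMD11 in SK-N-BE(2) (-0.000595, not called). The cause was not tested. Removing PSMA1, PSMA2, PSMA6 and PSMD9, which overlap protein-coding genes on the same strand, and PSMD5, near 0 counts in IMR5, moved no count by over 1.5 times. That setting was chosen after the data were seen. No paired analysis was possible because the tables hold no values per library; leaving out single libraries was not run for the same reason. Depth per library is unknown, and 3 libraries per group limit the precision.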

Other observations

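UBB, a polyubiquitin gene, had a mean normalized count of 0.704 in LAN5, whereas IMR5 had 1971, SK-N-FI 1745 and SK-N-BE(2) 2740, in the authors' deposited tables, each normalized on its own. UBB was singled out after its level was seen. Like PSMD5 in IMR5, it was near 0 in a single line, as a mean over libraries with and without GSK-J4.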
